A study of Homo sapiens with 6 samples.

Results

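Messenger RNA of 10 enzymes that make serine, one-carbon units, asparagine, proline and cysteine was followed in cells given the compound AAPK and in DMSO controls. The enzymes are ASNS, PHGDH, PSAT1, PSPH, SHMT2, MTHFD2, ALDH1L2, PYCR1, ALDH18A1 and CTH, chosen by name with earlier results of these data known. They are 10 of the 18132 genes that a probe set named alone, and they are read by 36 of 44988 such probe sets. There were 6 Affymetrix arrays, 3 from cells given AAPK and 3 from cells given the vehicle DMSO, all labelled as HCT-116, an established human colorectal carcinoma line that the labels describe as expressing much Aurora-A and PLK-1. The series title calls the compound a dual inhibitor of those mitotic kinases, and the treatment field, the same for all arrays, gives 10 µM and 48 h. Whether the 3 arrays per group stand for separate cultures is not stated.

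The labelled cell type was checked against markers. KRT8 and KRT18, keratins of simple epithelia, lay at the 99.2 and 99.5 percentile of mean signal over the 18132 genes, and CLDN4, a tight-junction protein, at the 84.9 percentile. In contrast, EPCAM, an epithelial surface antigen that HCT-116 cells are known to express strongly, lay at the 0.866 percentile, CDH1, E-cadherin, at the 14.5 percentile and KRT19, another keratin, at the 13.3 percentile. Of 8 colon epithelium markers 5 were under the 15 percentile, on the arrays of either group, so the markers go partly against the label, and the cells are called here by their label only. Of 13 measured markers of fibroblasts, endothelium, blood cells and hepatocytes 4 were under the 15 percentile. The highest of the 13, PECAM1 of endothelium, lay at the 65.3 percentile, above EPCAM, CDH1 and KRT19. Between AAPK and DMSO limma called 0 of the 13, against 15.4% of all genes. An unadjusted limma p under 0.05 was found for 2 of the 13, against 2533 lower and 2328 higher of all 18132 genes. Comparing AAPK with DMSO cannot show whether a marker is present. Arrays of the same group correlated at 0.9976 or more, and an AAPK with a DMSO array at 0.9954 or less.

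The enzymes sit on short routes out of glycolysis and glutamate. PHGDH, PSAT1 and PSPH turn a glycolytic intermediate into serine; SHMT2, MTHFD2 and ALDH1L2 pass the one-carbon unit of serine along folate in mitochondria; ASNS makes asparagine; ALDH18A1 and PYCR1 make proline from glutamate; and CTH releases cysteine in transsulfuration. Several of these genes are known targets of ATF4, a transcription factor whose protein rises when amino acids run short.

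Asparagine synthetase, the aminotransferase of serine synthesis, the cysteine-releasing lyase and the mitochondrial folate enzymes SHMT2 and MTHFD2 were lower with AAPK, while neither proline enzyme was. Of the 10 genes, 6 fell (ASNS, PSAT1, CTH, MTHFD2, SHMT2 and PHGDH), 1 rose (ALDH18A1) and 3 did not pass (PSPH, ALDH1L2 and PYCR1), by limma's test with Benjamini-Hochberg adjustment over all 18132 genes and a threshold of 0.05. Of all genes, 7.26% fell and 8.11% rose by the same rule. The median log2 change, AAPK minus DMSO, was -0.39 over the 10 enzymes and -0.02 over all genes, and 8 of 10 were below 0, against 57.4% of all genes. The groups of 3 arrays did not overlap for 9 of the 10, against 31.9% of all genes; AAPK was lower in 7 of these, against 17.1% of all genes, and higher in 2, against 14.9%. In RNA from whole cultures, fewer cells that express a gene and less transcript per cell cannot be told apart.

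**Figure D1:**
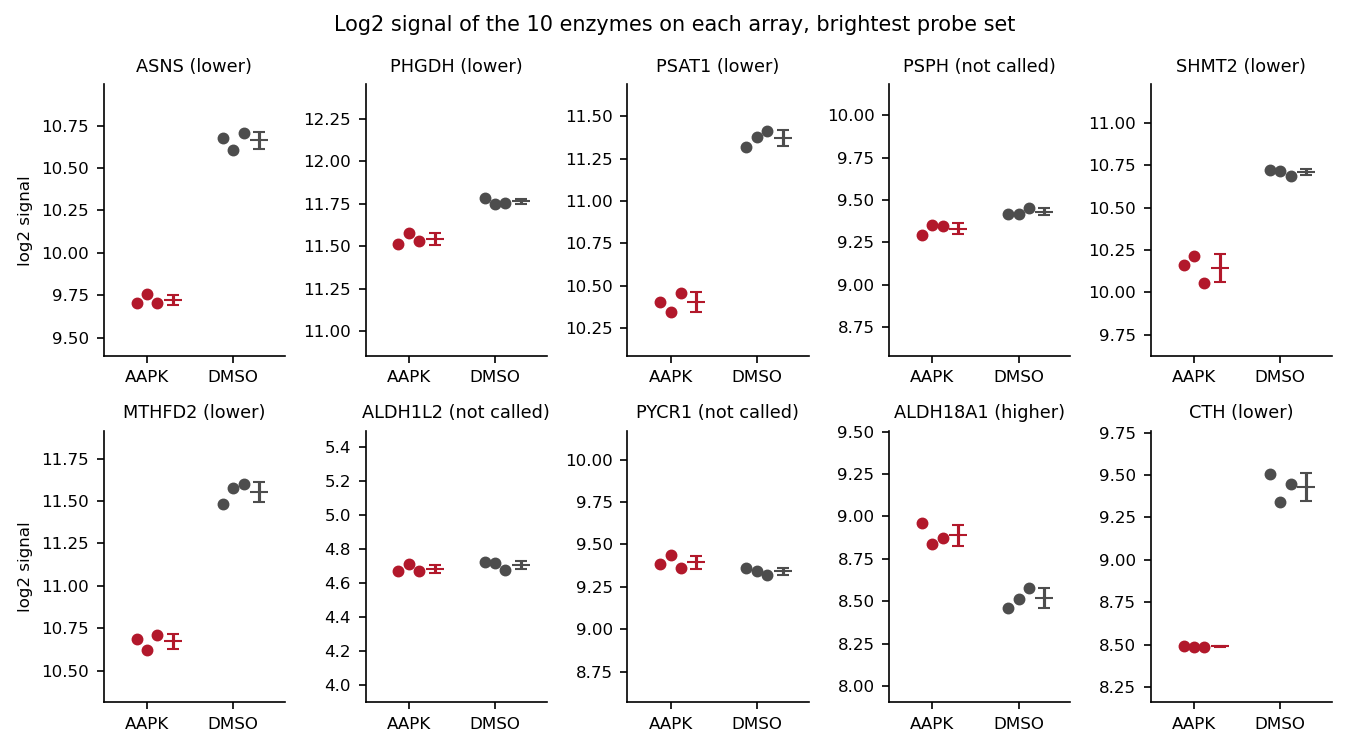
Log2 signal (y axis) of the 10 enzymes on 3 AAPK arrays (left, red) and 3 DMSO arrays (right, grey), for the brightest probe set of each gene; points are arrays, and the bar beside them is the mean with 1 SD. Each panel spans the same range of log2 units, so the gap in ASNS, PSAT1, MTHFD2 and CTH can be set against the small one in PHGDH and the opposite one in ALDH18A1.

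ASNS, which transfers nitrogen from glutamine to aspartate to make asparagine, had 9.70, 9.75 and 9.71 log2 units with AAPK, against 10.68, 10.61 and 10.71 with DMSO. Every AAPK array lay below every DMSO array. The gene was 1.92-fold lower (log2 change -0.94 ± 0.05 SE, 95% interval -1.05 to -0.84, limma adjusted p = 1.10e-06). All 4 of its probe sets fell, by 0.86 to 1.01 on the log2 scale.

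The promoter of ASNS is shown because it holds the 1 match to the composite element at which ATF4 binds with a C/EBP partner. The match is the only one among the enzymes' promoters that were searched in the RefSeq table (GRCh38.p14). The letters searched were TGATGNAA, on both strands and from 250 bases before to 50 bases after the start, and 3.62% of all 35116 promoters hold a match. Of the 10 enzymes, 6 had an entry there (ASNS, PHGDH, PSAT1, MTHFD2, ALDH18A1 and CTH), ASNS with 2 start sites. The 250 bases before the upstream start of ASNS, with the match in capitals at bases -68 to -61, read:
ASNS (chr7:97872409-97872658, - strand): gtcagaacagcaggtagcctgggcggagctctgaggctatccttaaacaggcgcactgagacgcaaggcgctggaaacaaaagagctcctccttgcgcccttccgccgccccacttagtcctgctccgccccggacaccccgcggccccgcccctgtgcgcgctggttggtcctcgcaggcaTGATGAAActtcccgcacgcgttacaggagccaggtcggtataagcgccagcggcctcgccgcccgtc
The match is a description of letters and does not show that a factor was bound.

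The 3 enzymes of serine synthesis did not move by equal amounts. PHGDH, the first and committed step, had 11.52, 11.58 and 11.53 log2 units with AAPK, against 11.78, 11.75 and 11.76 with DMSO. Its groups did not overlap, but the gene was only 1.17-fold lower (log2 change -0.22 ± 0.04 SE, limma adjusted p = 0.00623), on its only probe set.

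PSAT1, the aminotransferase of the second step, had 10.41, 10.35 and 10.46 log2 units with AAPK, against 11.32, 11.38 and 11.41 with DMSO. It was 1.95-fold lower (log2 change -0.97 ± 0.05 SE, 95% interval -1.07 to -0.86, limma adjusted p = 1.39e-06). All 8 PSAT1 probe sets fell, by 0.63 to 0.98 on the log2 scale. The change of PHGDH was 0.74 log2 units above that of PSAT1, and the PHGDH minus PSAT1 difference did not overlap between the groups (two-sided exact permutation p = 0.1, the smallest that 3 arrays against 3 allow, and 0.1 adjusted over 4 such pairs, which were chosen after their values were seen).

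PSPH, the phosphatase of the last step, gave different answers on its 3 probe sets. The brightest had 9.30, 9.35 and 9.35 log2 units with AAPK, against 9.42, 9.42 and 9.45 with DMSO, a log2 change of -0.10 ± 0.04 SE that did not pass (limma adjusted p = 0.178). The next had 8.51 ± 0.08 log2 units with AAPK and 9.25 ± 0.02 with DMSO (SD, n = 3 each), and fell by 0.75 on the log2 scale (limma adjusted p = 1.99e-05 over the 44988 probe sets). The dimmest had 6.55 ± 0.07 log2 units with AAPK and 6.42 ± 0.07 with DMSO, a log2 change of 0.12 (limma adjusted p = 0.217). In Affymetrix naming all 3 PSPH probe sets carry a suffix for sequence shared with other transcripts, and PSPH has an annotated pseudogene copy, PSPHP1; whether the probe sets read that copy was not tested. On the brightest probe sets the change of PSPH was 0.87 log2 units above that of PSAT1, with no overlap of the differences (two-sided exact permutation p = 0.1, the smallest possible). That difference was 0.60 when probe sets were averaged and 0.23 on the most variable ones, so its size rests on the probe set chosen.

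Of the mitochondrial folate enzymes, SHMT2 and MTHFD2 fell, and ALDH1L2, of low signal, did not pass. SHMT2, which splits serine into glycine and a folate-bound one-carbon unit, had 10.16, 10.21 and 10.05 log2 units with AAPK, against 10.72, 10.71 and 10.69 with DMSO. It was 1.48-fold lower (log2 change -0.57 ± 0.05 SE, limma adjusted p = 6.08e-05), and its 4 probe sets fell by 0.48 to 0.57 on the log2 scale. MTHFD2, which oxidises that one-carbon unit, had 10.68, 10.62 and 10.71 log2 units with AAPK, against 11.48, 11.57 and 11.60 with DMSO. It was 1.84-fold lower (log2 change -0.88 ± 0.05 SE, limma adjusted p = 2.93e-06), and all 5 probe sets fell, by 0.81 to 0.92 on the log2 scale. The fall of SHMT2 was smaller than that of MTHFD2 by 0.31 log2 units, with no overlap between the groups in the SHMT2 minus MTHFD2 difference (two-sided exact permutation p = 0.1, the smallest possible).

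ALDH1L2, which releases the one-carbon unit as carbon dioxide, had 4.67, 4.71 and 4.67 log2 units with AAPK, against 4.73, 4.72 and 4.68 with DMSO. The groups overlapped, the log2 change was -0.02 (95% interval -0.12 to 0.07, limma adjusted p = 0.795), and the other probe set was at 0.11 (limma adjusted p = 0.272). Its mean signal lay at the 10.2 percentile of the genes, and the table holds no detection call, so a change of a low transcript could go unseen.

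CTH, cystathionine gamma-lyase, which frees cysteine from cystathionine, had 8.49 log2 units on each of the 3 AAPK arrays, against 9.50, 9.34 and 9.45 with DMSO. On its only probe set it was 1.92-fold lower (log2 change -0.94 ± 0.05 SE, 95% interval -1.05 to -0.83, limma adjusted p = 2.15e-06).

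The promoters of the other 3 strongly lower genes and of the gene that rose are set side by side, since no match to TGATGNAA was found in them. Only exact letters near the listed starts were searched, so the lack of a match cannot show that these genes lack the element. Searched after the values were known, CCAAT (both strands) was present before the start of PHGDH, PSAT1, MTHFD2 and CTH. That makes 4 of the 7 promoters searched for these enzymes, against 34.6% of all promoters. CACGTG, the E-box, was present in 1 of the 7, that of ALDH18A1, against 7.26% of all promoters. The 250 bases before each start (GRCh38.p14), with CCAAT or CACGTG in capitals, read:
PSAT1 (chr9:78296875-78297124, + strand): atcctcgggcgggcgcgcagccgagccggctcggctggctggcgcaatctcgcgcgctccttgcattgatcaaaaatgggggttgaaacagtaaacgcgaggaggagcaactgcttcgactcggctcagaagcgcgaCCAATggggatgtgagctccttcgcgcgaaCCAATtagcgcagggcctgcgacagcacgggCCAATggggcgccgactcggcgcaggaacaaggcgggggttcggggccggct
MTHFD2 (chr2:74198365-74198614, + strand): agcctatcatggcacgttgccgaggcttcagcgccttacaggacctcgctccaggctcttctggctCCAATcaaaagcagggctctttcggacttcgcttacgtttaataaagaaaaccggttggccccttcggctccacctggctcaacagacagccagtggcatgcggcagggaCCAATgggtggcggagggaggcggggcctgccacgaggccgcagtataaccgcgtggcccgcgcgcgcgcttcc
CTH (chr1:70411018-70411267, + strand): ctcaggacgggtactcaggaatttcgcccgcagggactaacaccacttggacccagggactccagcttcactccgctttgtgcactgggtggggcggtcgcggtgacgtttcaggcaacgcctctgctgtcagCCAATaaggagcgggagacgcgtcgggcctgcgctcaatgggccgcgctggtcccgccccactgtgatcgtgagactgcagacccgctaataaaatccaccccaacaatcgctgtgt
ALDH18A1 (chr10:95656712-95656961, - strand): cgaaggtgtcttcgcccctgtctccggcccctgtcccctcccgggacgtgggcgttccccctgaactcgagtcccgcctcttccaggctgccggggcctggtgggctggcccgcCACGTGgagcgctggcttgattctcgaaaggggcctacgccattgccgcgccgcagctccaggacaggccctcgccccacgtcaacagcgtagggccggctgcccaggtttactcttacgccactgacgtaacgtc
PSAT1 held CCAAT 3 times, at bases -113 to -109, -83 to -79 and -52 to -48, MTHFD2 held it at bases -184 to -180 and -74 to -70, and CTH held it at bases -117 to -113. The E-box of ALDH18A1 lay at bases -136 to -131.

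The proline enzymes behaved otherwise. ALDH18A1, pyrroline-5-carboxylate synthase and the entry step from glutamate, had 8.96, 8.84 and 8.87 log2 units with AAPK, against 8.46, 8.51 and 8.58 with DMSO. Every AAPK array lay above every DMSO array, and the gene rose 1.29-fold (log2 change 0.37 ± 0.05 SE, 95% interval 0.26 to 0.49, limma adjusted p = 8.74e-04). Its other probe set rose by 0.34 (limma adjusted p = 0.00456).

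PYCR1, the reductase that finishes proline in mitochondria, had 9.39, 9.44 and 9.36 log2 units with AAPK, against 9.36, 9.35 and 9.32 with DMSO. The log2 change of 0.05 (95% interval -0.04 to 0.15) did not pass (limma adjusted p = 0.502), and it was at -0.0091 after quantile normalisation. None of the 6 PYCR1 probe sets passed limma's threshold, adjusted or unadjusted, and their log2 changes ran from -0.15 to 0.05. The change of PYCR1 was 0.32 log2 units below that of ALDH18A1, with no overlap of the differences (two-sided exact permutation p = 0.1, the smallest possible), and 0.52 below it on the most variable probe sets.

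**Figure D2:**
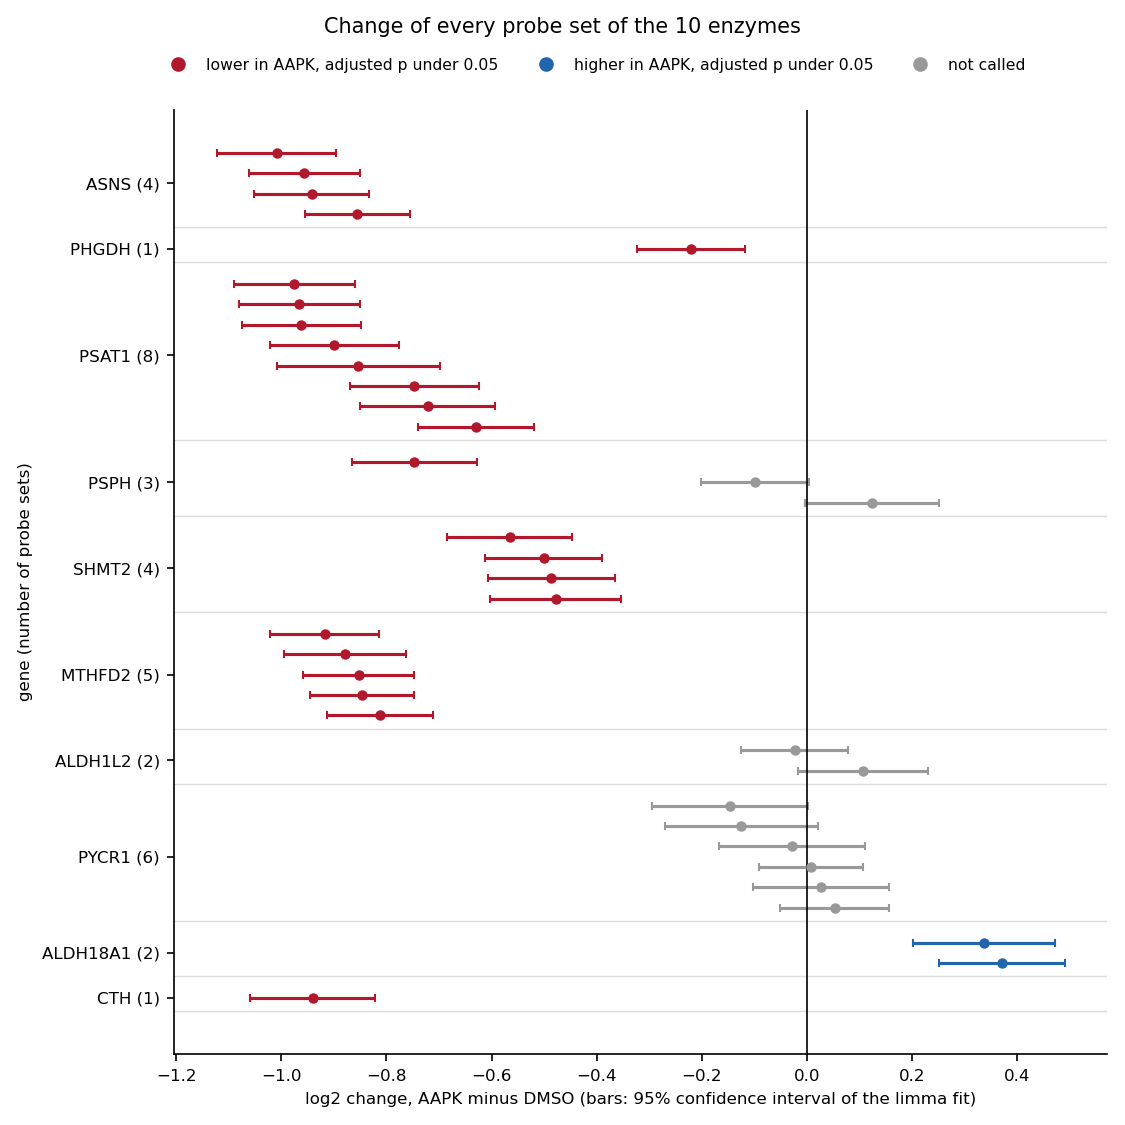
Log2 change, AAPK minus DMSO (x axis), of all 36 probe sets of the 10 enzymes, grouped by gene (y axis, with the number of probe sets); bars are 95% confidence intervals of the limma fit over 44988 probe sets, and colour marks the call. All probe sets of ASNS, PSAT1, SHMT2 and MTHFD2 lie left of 0, those of PSPH are split, and those of PYCR1 straddle 0.

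Across probe sets, 24 of 36 fell, 2 rose and 10 did not pass, against 5.82% lower and 7.13% higher of all 44988 probe sets. The groups did not overlap for 31 of 36, against 29.6% of all probe sets, with AAPK lower in 26, against 15.2%, and higher in 5, against 14.3%. The log2 change was below 0 for 29 of 36, against 55.0% of all probe sets. Standard deviations between the 3 arrays of a group ran from 0.0024 to 0.127 log2 units over the 36 probe sets, with a median of 0.049, beside a median of 0.062 for all probe sets. The brightest probe sets of ASNS, PSAT1, MTHFD2, ALDH18A1 and PYCR1 also carry a suffix for shared sequence. With such probe sets left out, a choice made after the values were seen, the log2 change was -0.86 for ASNS, -0.63 for PSAT1, -0.92 for MTHFD2, 0.34 for ALDH18A1 and 0.0077 for PYCR1, and limma's calls on these 5 genes were as before.

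Mitochondrial enzymes were then set beside their paralogs. SHMT1, the cytosolic serine hydroxymethyltransferase, had 8.40 ± 0.05 log2 units with AAPK and 8.57 ± 0.03 with DMSO (SD, n = 3 each), a fall of 0.18 (limma adjusted p = 0.0282) that 6 of 15 alternatives ended. The change of SHMT2 was 0.39 log2 units below that of SHMT1. MTHFD1, the cytosolic folate enzyme with the matching activity, had 9.07 ± 0.07 log2 units with AAPK and 9.05 ± 0.02 with DMSO, and the change of MTHFD2 was 0.90 below its own. MTHFD2L, the mitochondrial paralog of MTHFD2, had 4.16 ± 0.11 log2 units with AAPK and 4.06 ± 0.14 with DMSO, at the 5.40 percentile of signal, so its difference from MTHFD2 is not read here. For SHMT2 with SHMT1 and for MTHFD2 with MTHFD1 the differences did not overlap between the groups (two-sided exact permutation p = 0.1, the smallest possible, and 0.167 adjusted over 5 pairs).

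ALDH1L2 and its cytosolic paralog ALDH1L1 differed in change by 0.12 log2 units (two-sided exact permutation p = 0.3), and PYCR1 and its cytosolic paralog PYCR3 by 0.08 (p = 0.2, two-sided exact permutation test), each with overlapping groups. ALDH1L1 had 7.46 ± 0.07 log2 units with AAPK and 7.61 ± 0.11 with DMSO, and PYCR3 had 8.37 ± 0.07 with AAPK and 8.39 ± 0.05 with DMSO. None of the 4 partners MTHFD1, MTHFD2L, ALDH1L1 and PYCR3 passed limma's threshold (adjusted p = 0.177 to 0.851).

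**Figure D3:**
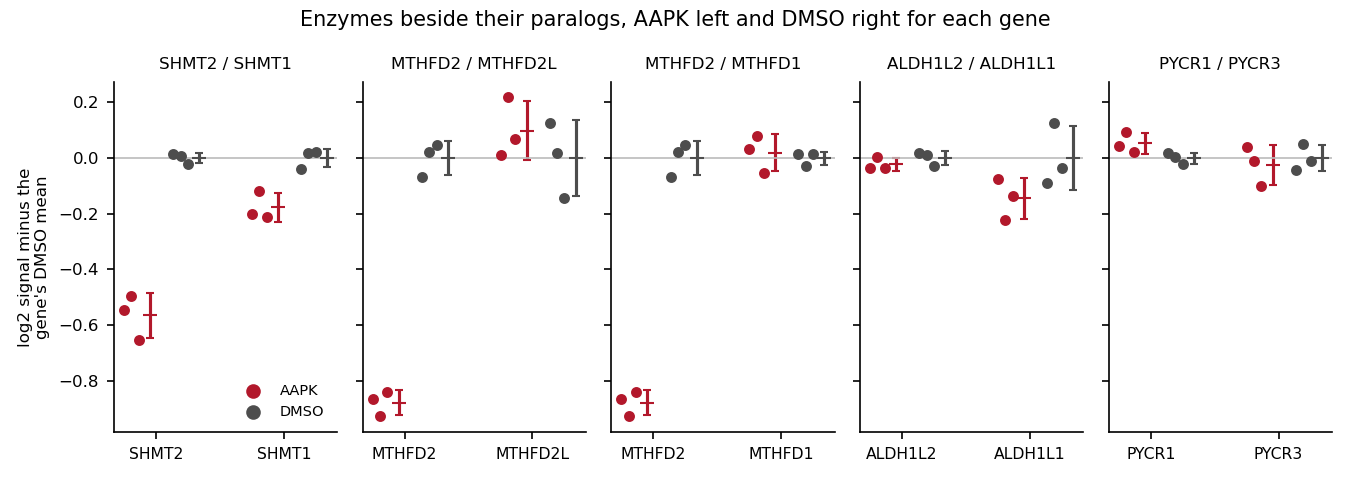
Log2 signal minus the gene's own DMSO mean (y axis) for 5 pairs of enzyme and paralog, with 3 AAPK arrays (left, red) and 3 DMSO arrays (right, grey) for each gene; bars are the mean with 1 SD. SHMT2 lies below SHMT1 and MTHFD2 below MTHFD1 on the AAPK arrays, MTHFD2L is a probe set of low signal, and ALDH1L2 and PYCR1 stay within reach of theirs.

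Genes of neighbouring reactions moved in both directions. Of 76 neighbouring genes listed, 64 were measured on a probe set of their own, of which 8 fell, 11 rose and 45 did not pass, with a median log2 change of -0.01. Of all genes 7.26% fell and 8.11% rose, so both directions were more frequent in the lists, a difference that was not tested. In the serine, glycine and folate list 3 of 24 fell and 3 rose (median -0.02). The largest called changes there were rises of SLC25A32, the mitochondrial folate carrier, by 0.46, of SFXN1, a mitochondrial serine transporter, by 0.32, and of ATIC, a purine synthesis enzyme that uses a folate one-carbon unit, by 0.20. SLC25A32 had 7.70 ± 0.11 log2 units with AAPK and 7.24 ± 0.08 with DMSO (limma adjusted p = 9.71e-04). The call on ATIC ended in 4 of 15 alternatives, with a limma adjusted p of up to 0.0600.

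In the asparagine, aspartate and glutamate list 3 of 15 fell and 2 rose (median -0.02). GFPT1, which spends glutamine to enter the hexosamine pathway, fell by 0.70 on the log2 scale (9.05 ± 0.06 with AAPK and 9.75 ± 0.0018 with DMSO, limma adjusted p = 8.74e-06), and ASNSD1 fell by 0.43. The 5 probe sets of GFPT1 had log2 changes from -0.70 to -0.20, and their mean was at -0.49. GLUL, glutamine synthetase, rose by 0.25, but by 0.14 as the mean of its probe sets, and its call was lost on its most variable probe set (0.24, limma adjusted p = 0.0607).

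In the proline list 4 of 11 rose and 0 fell by limma (median 0.04), against 8.11% and 7.26% of all genes. At an unadjusted limma p under 0.05, 0 were lower and 5 higher, against 2533 lower and 2328 higher of all 18132 genes. The difference from all genes was not tested. P4HA2 and P4HA1, catalytic subunits of collagen prolyl hydroxylase, rose by 0.37 and 0.34, and OAT, which links ornithine to the proline route, by 0.32. In the cysteine list 2 of 14 fell and 2 rose (median -0.0076). CHAC1, which breaks down glutathione, fell by 0.76 (7.92 ± 0.18 with AAPK and 8.68 ± 0.21 with DMSO, limma adjusted p = 0.00107). The 2 probe sets of CHAC1 had log2 changes of -1.02 and -0.76, and their mean was at -0.89. GCLM, a subunit of the enzyme that starts glutathione synthesis, rose by 0.38, or by 0.25 as the mean of its probe sets. TST, thiosulfate sulfurtransferase, rose by 0.34.

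**Figure D4:**
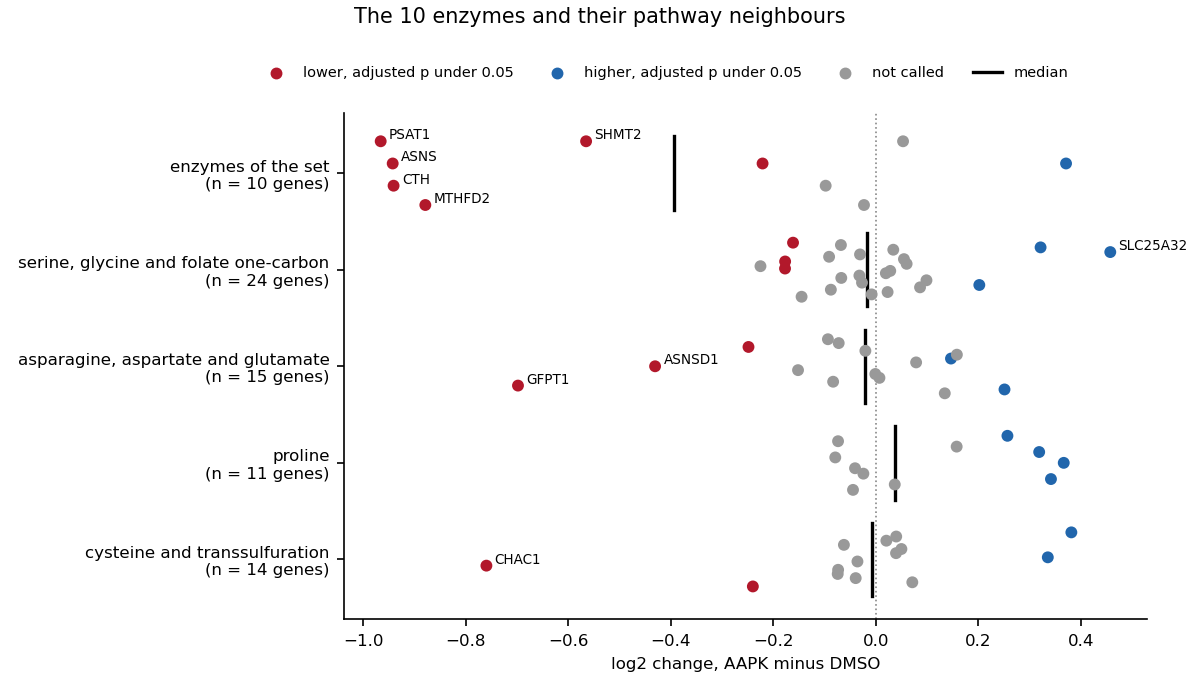
Log2 change, AAPK minus DMSO (x axis), of the 10 enzymes and of 64 genes in 4 lists of neighbouring reactions (y axis); each point is a gene, colour marks the call, and the black bar is the median of the row. The median of the enzymes is -0.39, whereas the medians of the 4 lists lie between -0.02 and 0.04.

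ATF4, which is known to drive several of the lower enzymes, had 11.93, 12.01 and 11.90 log2 units with AAPK, against 12.50, 12.48 and 12.50 with DMSO (log2 change -0.55 ± 0.05 SE, limma adjusted p = 3.64e-05). The probe set read for ATF4 carries a suffix for shared sequence, and averaging the gene's probe sets gave the same log2 change. The part of ATF4 in the enzymes' change was not tested.

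Profiles most like that of ASNS were sought over the 6 arrays, as the root mean square distance between profiles centred on their own mean. CTH lay at 0.034 log2 units, PSAT1 at 0.062 and MTHFD2 at 0.071, while ALDH18A1, at 0.66, was the farthest of the other 9 enzymes. The 5 nearest genes outside the set were SNHG1, a noncoding RNA host of small nucleolar RNAs, at 0.035; CARS1, cysteinyl-tRNA synthetase, at 0.037; DTL, a ubiquitin ligase receptor, at 0.041; GRPEL2, a mitochondrial co-chaperone, at 0.045; and IRF2BP2, a transcriptional corepressor, at 0.045. Their log2 changes ran from -1.01 to -0.88, and IRF2BP2 was at -1.63 when read on its most variable probe set. When probe sets were averaged, DTL was at -0.76 and GRPEL2 at -0.75, so the distances rest on the probe set chosen. With 2 groups of 3 arrays, the distance is set mostly by the size of the change.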

How the data were processed

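Total RNA was extracted with Trizol, biotin-labelled by in vitro transcription and hybridised, per the labels' protocols. The deposited table holds log2 signal values of 49395 probe sets, the log base and the normalisation between arrays being read from the values; the authors' background correction and summarisation are not stated in the labels or the file. Such normalisation makes every change relative to the bulk of genes.

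Probe sets that named 1 gene in the platform's table (44988) were kept, and each of 18132 genes was read on its brightest probe set. AAPK was compared with DMSO by limma 3.58.1 in R 4.3.3 (group as the only term, two-sided, adjusted p threshold 0.05), over all genes and over all probe sets, after a test on simulated data. The p-values measure the spread between 3 samples, which may be technical. Pairs of enzymes were compared by exact permutation over arrays. Alternatives covered scaling, signal filters, probe set choice, variance model, array weights, the replicate block and each array left out.

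The members, lists and pairs were chosen with earlier results of these data known; the 4 pairs of enzymes on 1 route and the promoter motifs were added after their values were seen. Named are all 10 enzymes and their pair partners, the 3 largest called changes of each neighbour list, ATF4 and the 5 genes nearest to ASNS. Genes without a probe set of their own are not analysed here.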

Additional observations from a re-analysis of the deposited data

How the results depend on the processing

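The calls on ASNS, PSAT1, CTH, MTHFD2, SHMT2, PHGDH and ALDH18A1 kept their direction and side of the threshold in all 105 alternative values (7 genes, 15 settings each). PSPH, not called on its brightest probe set, passed after quantile normalisation (-0.16), when its probe sets were averaged (-0.24) and on the most variable of them (-0.75). With probe sets for shared sequence left out, chosen after seeing the data, 9 of the 10 enzymes remained, with 6 lower and 1 higher, and PSAT1 was at -0.63.

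Of the genes not called, PSPH kept its sign in all 15 settings and others did not. ALDH1L2 was at 0.042 and PYCR1 at -0.035 when probe sets were averaged, and at 0.11 and -0.15 on the most variable ones; MTHFD2L was at -0.0092 and -0.10 in the same settings, and ALDH1L1 at 0.0054 in the last, where PYCR1 minus PYCR3 was at -0.0072. Quantile normalisation gave PYCR1 -0.0091 and MTHFD1 -0.030, and array weights gave PYCR3 0.013. With 1 array left out, MTHFD1 ran from -0.0099 to 0.056 and PYCR3 from -0.056 to 0.014. The cause was not tested.

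Same-numbered arrays did not deviate together (r of 0.0224, -0.197 and -0.0306). In these deviations no array correlated best with the array of its own number in the other group. With the replicate block, 983 genes fell and 1116 rose, against 1317 and 1471 without it, with 6 enzymes lower and 1 higher as before. The number of all probe sets called lower ran from 1723, without AAPK replicate 1, to 2255 with 1 array left out, against 2618 with all; the 24 of the enzymes did not move. Medians of all genes moved by less than 0.1 log2 units under either scaling, but of the genes called 47.2% were lower as deposited, 52.2% after quantile normalisation (1401 lower, 1282 higher) and 38.7% after median centring (1073 lower, 1700 higher). Signal near the low end limits ALDH1L2 and MTHFD2L.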

Other observations

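Some markers of the labelled cell type were low on every array. EPCAM averaged 3.39 ± 0.04 log2 units with AAPK and 3.45 ± 0.06 with DMSO (SD, n = 3 each), and the highest mean of its 3 probe sets over the 6 arrays was 3.42. CDH1 averaged 5.11 ± 0.02 with AAPK and 5.11 ± 0.03 with DMSO, KRT19 5.02 ± 0.05 with AAPK and 4.97 ± 0.04 with DMSO, VIL1, a brush-border protein, 4.02 ± 0.10 with AAPK and 4.15 ± 0.15 with DMSO, and LGALS4, an intestinal galectin, 4.43 ± 0.04 with AAPK and 4.48 ± 0.03 with DMSO. KRT8 was high, at 12.01 ± 0.06 log2 units with AAPK and 11.84 ± 0.03 with DMSO. Of these 6 markers only KRT8 passed limma's threshold, at a log2 change of 0.17. The identity of the cells was not tested further.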
